A study of Mus musculus with 30 samples.

Results

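The genes described here mark fibroblasts and their contractile form, the myofibroblast, in mouse B16 melanomas that did or did not secrete a type I interferon. They were chosen by name, as Fap, Thy1, Pdgfra, Pdpn, Postn, Tagln and Acta2, and 6 of the 7 symbols had a row among the 39676 genes counted. Acta2 was not analysed here. Bulk RNA-seq was performed on 30 whole tumors taken on day 8, with 10 B16-GFP, 10 B16-IFNA4 and 10 B16-IFNA9 tumors, each labelled as a separate biological replicate. All 3 lines derive from B16-F10 melanoma, were grown under the skin of female C57BL/6 mice, and also carry luciferase and glycoprotein B of herpes simplex virus. B16-IFNA4 and B16-IFNA9 cells express interferon α4 or interferon α9 from a retroviral promoter, together with GFP, and B16-GFP cells, the control, carry the vector with GFP alone. The lines were made by transduction followed by sorting or drug selection, so each interferon is represented by a single line, and a difference between lines and an effect of the interferon cannot be told apart. The study's methods give a usual age range of young adult mice and the labels give no age for these animals.

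Fibroblasts make and remodel the collagen-rich matrix of connective tissue, and in a tumor they form much of the stroma around the cancer cells. Platelet-derived growth factors act on them through receptors such as Pdgfra, and TGF-β, which signals through SMAD proteins, drives their change into myofibroblasts, which lay down matrix and contract through smooth muscle actin and its partners. Fap is a surface prolyl peptidase of activated fibroblasts and Thy1 a small lipid-anchored surface protein that T cells also carry in the mouse. Pdpn is a mucin-like surface glycoprotein that binds CLEC-2 on platelets, and is also made by lymphatic endothelium and by some keratinocytes and macrophages. Postn is a secreted matrix protein that binds integrins and collagen. Tagln is an actin-binding protein of smooth muscle and myofibroblasts, and Acta2 encodes smooth muscle actin itself.

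Totals of 14598517 to 19788383 counts were read per tumor. All 6 genes passed the filter on low counts, a mean of 10, and were among the 15926 genes tested. Levels are given as CPM, the usual count normalised to sequencing depth, with library totals scaled by TMM. The fewest counts were those of Tagln, at 34 to 217 per tumor, while Postn had 2826 to 23096. One library stood apart from its group: B16-GFP tumor 7 had the lowest TMM scaling factor (0.768, the others from 0.856 upwards) and the highest summed level of the melanocyte genes Tyr and Tyrp1 (22116 CPM). It also had the lowest Fap, Thy1, Pdgfra, Pdpn and Postn of its group. The fold changes of the 6 genes against the control, the correlations called in that group and the counts of calls that it moved by over 1.5 times are therefore given with and without it. A gene was called when its p, from the quasi-likelihood test of edgeR and adjusted by Benjamini and Hochberg's method over all 15926 genes, was under 0.05, and errors after fold changes are standard errors.

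In GENCODE M21, an annotation of GRCm38, Fap lies at chr2:62500943-62574075 on the minus strand, Thy1 at chr9:44043384-44048579 on the plus strand and Pdgfra at chr5:75152292-75198215 on the plus strand. Pdpn lies at chr4:143267431-143299564 on the minus strand, Postn at chr3:54361109-54391037 on the plus strand and Tagln at chr9:45929619-45936058 on the minus strand. All 6 are protein-coding, and the values cover their exons. Of the stretches of 50 bases in their transcripts, the length of a read, at most 0.271% (Fap) occur in another gene. Tagln has the most overlap with other genes, as 62.4% of its exon bases lie under the antisense gene Gm48529 and 5.43% under Pcsk7, both on the opposite strand. Of the exon bases of Pdgfra, 4.55% lie under the antisense gene Gm42802 and 1.66% under Gm42803, on the opposite strand, and 0.299% under Mir7025 on its own strand. The strand setting of the counting is not given in the sources used here. Gm48529 itself received 15 to 73 counts per tumor.

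RefSeq promoters of GRCm38.p6, from 250 bases before to 50 after the start of the gene, were held for Postn, Pdpn and Pdgfra. Fap, Thy1 and Tagln had no entry. The promoters of Postn and Pdpn are shown because these genes had the clearest differences between the interferon lines and the control or between both interferon lines. Capitals mark a TATAAA match. The Postn promoter, of the start that lies 2 bases before that of the annotated gene, spans chr3:54360857-54361156 on the plus strand, and the Pdpn promoter spans chr4:143299515-143299814 on the minus strand.
Postn: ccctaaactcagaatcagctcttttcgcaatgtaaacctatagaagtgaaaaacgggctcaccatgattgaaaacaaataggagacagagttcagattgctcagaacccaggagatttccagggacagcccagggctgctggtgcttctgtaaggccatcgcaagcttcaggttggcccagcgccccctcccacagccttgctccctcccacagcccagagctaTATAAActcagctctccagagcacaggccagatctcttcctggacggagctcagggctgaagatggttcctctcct
Pdpn: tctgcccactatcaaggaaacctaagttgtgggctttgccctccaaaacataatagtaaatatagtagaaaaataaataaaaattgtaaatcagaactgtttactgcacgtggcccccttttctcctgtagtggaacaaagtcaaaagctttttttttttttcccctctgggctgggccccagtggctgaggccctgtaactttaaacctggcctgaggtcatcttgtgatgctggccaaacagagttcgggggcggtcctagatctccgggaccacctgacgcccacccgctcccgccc
The Postn promoter held TATAAA from 26 to 21 bases before the start, a motif that 13.6% of all 32851 promoters hold on either strand. The promoters of Postn, Pdpn and Pdgfra were also searched on both strands for the interferon element GAAANNGAA, the GAS element TTCNNNGAA, the SMAD element CAGACA, the AP-1 site TGACTCA and the CArG box of serum response factor. None of these was found in them, while the promoter of a second, upstream Postn start held the interferon element from 227 to 219 bases before that start. Of all promoters, 8.56% hold the interferon element, 8.30% the GAS element, 21.04% the SMAD element, 5.20% the AP-1 site and 1.63% a CArG box.

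Per kilobase of exon, Postn, Thy1 and Pdpn stood together at the top in every tumor type, Pdgfra stood well below them, and Fap and Tagln were lowest. In B16-GFP tumors Postn reached 61.5 ± 14.8, Thy1 59.3 ± 24.2, Pdpn 55.1 ± 11.1, Pdgfra 11.3 ± 3.93, Fap 5.33 ± 1.57 and Tagln 3.91 ± 1.38 CPM per kilobase (SD, n = 10). The neighbours Postn and Thy1 did not differ beyond their spread there, as Postn was higher in 6 of 10 tumors, nor did Thy1 and Pdpn, with Thy1 higher in 7. Pdpn was above Pdgfra, and Pdgfra above Fap, in all 10. In B16-IFNA4 tumors the order of the lowest 2 turned, with Tagln at 3.27 ± 0.693 and Fap at 2.76 ± 0.527 CPM per kilobase, and Tagln was the higher in 7 of 10 tumors. Postn was then at 112 ± 13.5 and Thy1 at 90.1 ± 17.4.

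**Figure D1:**
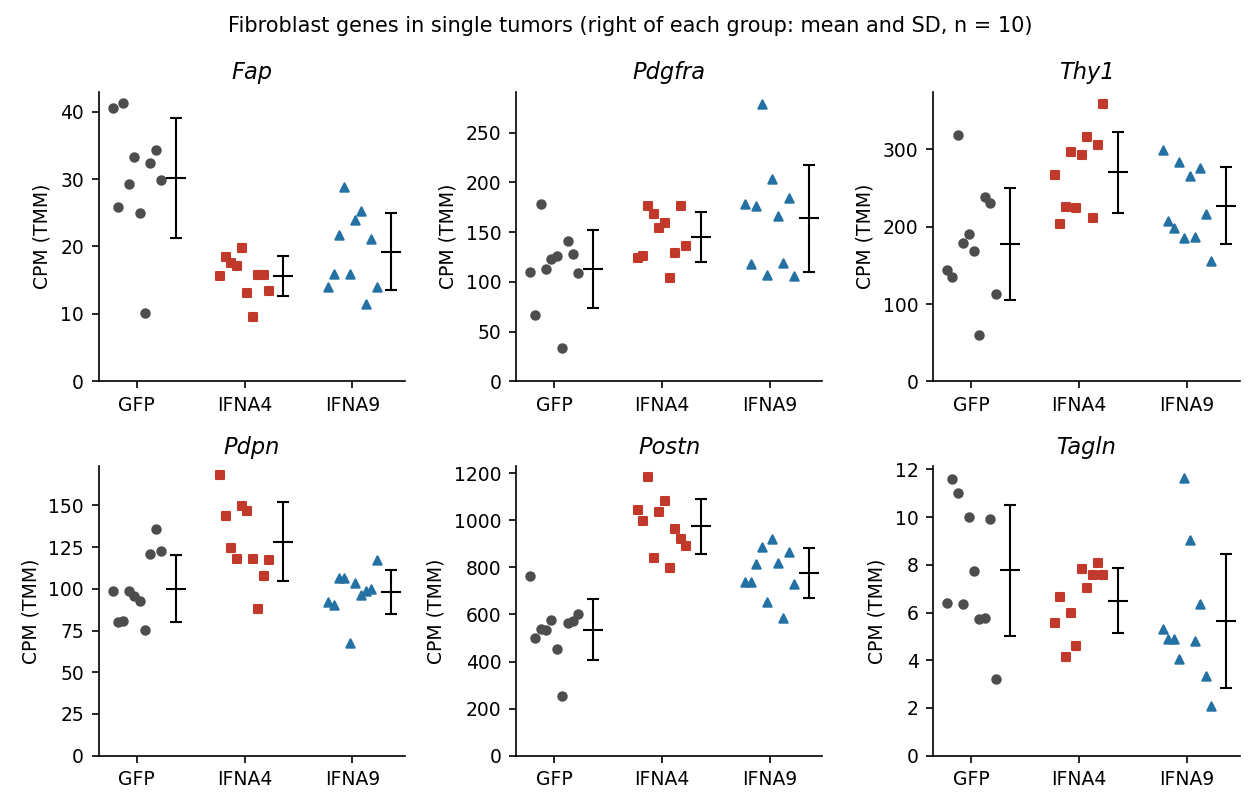
Level of the 6 genes in each tumor, in CPM scaled by TMM on axes that start at 0. Each point is a tumor, and the bar to the right of each group gives the mean and SD of 10 tumors. Postn of B16-IFNA4 tumors lies wholly above that of B16-GFP tumors, and for Fap 9 of 10 B16-GFP tumors, all but tumor 7, lie above every B16-IFNA4 tumor.

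The genes did not move as one. In B16-IFNA4 tumors Postn, Thy1 and Pdpn were higher than in B16-GFP tumors and Fap was lower, while Pdgfra and Tagln were not called. In B16-IFNA9 tumors Postn and Pdgfra were higher and Fap was again lower. That made 4 of 6 genes called for IFNA4 against GFP, where 65.4% of all genes tested were called, and 3 of 6 for IFNA9 against GFP, where 55.7% were called. These shares are near those of all genes, so the counts by themselves say nothing particular about fibroblast genes. By direction, 31.3% of all genes were called higher and 34.1% lower with IFNA4, and 26.9% higher and 28.9% lower with IFNA9. None of the 6 changed by 2-fold or more, while 18.7% of all genes were called with a change of at least that size with IFNA4 and 12.5% with IFNA9. Counts over gene lists are to be read against the same shares. Both comparisons use the same control tumors. Without B16-GFP tumor 7 the counts of calls were 4 and 3 as well, but Fap with IFNA4 then passed 2-fold (log2 fold change -1.03), so the count of members changed by that much was 1. In whole tumors, fewer cells of a type and less RNA per cell cannot be told apart, and the counts do not say which cells held the RNA.

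Fap, the peptidase, ran from 10.2 to 41.3 CPM in B16-GFP tumors (median 31.2), from 9.48 to 19.8 in B16-IFNA4 tumors (median 15.8) and from 11.4 to 28.8 in B16-IFNA9 tumors (median 18.5). Of the 10 control tumors, 9 ran from 25.0 CPM upwards, above every B16-IFNA4 tumor, and tumor 7 alone gave the low end of the range. The fit placed Fap 1.94-fold lower in B16-IFNA4 tumors (log2 fold change -0.95 ± 0.18, adjusted p = 4.49e-05) and 1.57-fold lower in B16-IFNA9 tumors (-0.65 ± 0.18, adjusted p = 0.00319). All 10 tumors of either interferon line lay below the control median. Without B16-GFP tumor 7 the log2 fold changes were -1.03 and -0.75. Between the interferon lines Fap differed by 0.30 ± 0.18 and was not called (adjusted p = 0.272).

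Postn, the matrix protein, moved the other way. It ran from 252 to 765 CPM in B16-GFP tumors (median 550), from 796 to 1183 in B16-IFNA4 tumors (median 979) and from 587 to 922 in B16-IFNA9 tumors (median 776). B16-IFNA4 and B16-GFP tumors did not overlap, which held for 1 of the 6 genes and for 18.5% of all genes. B16-IFNA9 tumors overlapped with the controls, as they did for all 6 genes, where 7.79% of all genes did not overlap, although each of them lay above the control median. Postn was 1.82-fold higher in B16-IFNA4 tumors (log2 fold change 0.86 ± 0.12, adjusted p = 4.34e-07) and 1.45-fold higher in B16-IFNA9 tumors (0.53 ± 0.12, adjusted p = 0.00045). Without B16-GFP tumor 7 these were 0.80 and 0.46, and both were still called. In B16-IFNA9 against B16-IFNA4 tumors Postn stood at -0.33 ± 0.12 and narrowly missed the threshold (adjusted p = 0.055). Without B16-GFP tumor 7 this difference was -0.34 and was called (adjusted p = 0.00611), and without B16-IFNA4 tumor 7 it was -0.36 (adjusted p = 0.0441). B16-GFP tumor 7 is not among the tumors compared here but is part of the same fit. Leaving it out raised the calls of this comparison over all genes from 2833 to 3801.

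Thy1 ran from 60.04 to 318 CPM in B16-GFP tumors (median 174), from 204 to 359 in B16-IFNA4 tumors (median 279) and from 156 to 298 in B16-IFNA9 tumors (median 212). The control range was the widest, with a coefficient of variation of 40.9% against 19.3% and 21.8%, and it enclosed all B16-IFNA9 tumors and all but 1 B16-IFNA4 tumor. Thy1 was 1.52-fold higher in B16-IFNA4 tumors (log2 fold change 0.60 ± 0.19, adjusted p = 0.0058), and all 10 of them lay above the control median. For IFNA9 against GFP the difference of 0.35 ± 0.19 was not called (adjusted p = 0.105), with 9 of 10 tumors above the control median. Without B16-GFP tumor 3, which had the highest Thy1 of its group, it was 0.49 and was called (adjusted p = 0.0208). The Thy1 differences without B16-GFP tumor 7 were 0.52 with IFNA4 (adjusted p = 0.00449) and 0.26 with IFNA9 (adjusted p = 0.160).

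Because T cells also carry Thy1, their markers are given beside it. The 6 T cell markers with enough counts all rose in both interferon lines, by a median log2 fold change of 2.69 with IFNA4 and 2.21 with IFNA9, and none was called between the lines. Lck, a kinase of T cell receptor signalling, was called there without B16-GFP tumor 7 or B16-IFNA9 tumor 8, and with all tumors under DESeq2, only the 20 tumors compared or the replicate block. Their summed level was 7.23 to 25.6 CPM in B16-GFP, 67.2 to 140.5 in B16-IFNA4 and 32.0 to 106 in B16-IFNA9 tumors. Among them Cd3d, a chain of the T cell receptor complex, rose by 2.94 with IFNA4. The 4 NK cell markers rose too, with medians of 4.10 and 3.42 and the activating receptor Ncr1 at 4.66 with IFNA4, and 1 of them, Klrb1c, was lower with IFNA9 than with IFNA4 (-0.78). Within tumor types Thy1 correlated with the T cell sum at r = 0.69 in B16-GFP, 0.22 in B16-IFNA4 and 0.45 in B16-IFNA9 tumors (n = 10 each), none of which passed adjustment over 90 gene and list pairs (adjusted p = 0.137, 0.768 and 0.370, permutation test). The B16-GFP value was 0.27 without tumor 7. The part of T cells in the Thy1 difference was not tested.

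Pdgfra, the receptor for platelet-derived growth factor, ran from 33.8 to 178 CPM in B16-GFP tumors (median 118), from 104 to 176 in B16-IFNA4 tumors (median 145) and from 106 to 279 in B16-IFNA9 tumors (median 171). The 3 ranges overlapped, and 4 B16-IFNA9 tumors exceeded every control. The difference was called for IFNA9 against GFP, where Pdgfra was 1.45-fold higher (log2 fold change 0.54 ± 0.20, adjusted p = 0.021), and not for IFNA4 against GFP (0.36 ± 0.20, adjusted p = 0.102), although 9 of 10 B16-IFNA4 tumors lay above the control median. Single tumors decided both calls. Without B16-IFNA9 tumor 4, the highest of all, the first was 0.43 and lost its call (adjusted p = 0.0523), and without B16-GFP tumor 3 the second was 0.46 and was called (adjusted p = 0.0399). With B16-GFP tumor 7 left out they were 0.44 (adjusted p = 0.0246) and 0.28 (adjusted p = 0.137). Between the interferon lines Pdgfra differed by 0.17 ± 0.20 (adjusted p = 0.597, interval -0.21 to 0.56).

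Of the ligands of this receptor family, 3 were tested. Pdgfd, which acts on the sister receptor Pdgfrb, rose with IFNA4 (log2 fold change 0.51, adjusted p = 0.0111) and was not called with IFNA9 (0.12). Pdgfa and Pdgfc had log2 fold changes between -0.04 and 0.16 in both comparisons with the control and were not called, nor was any of the 3 between the interferon lines. Pdgfd was called there without B16-GFP tumor 7 and with only the 20 tumors compared.

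Pdpn was the 1 gene called between the interferon lines. It ran from 75.3 to 136 CPM in B16-GFP tumors (median 97.3), from 88.1 to 168 in B16-IFNA4 tumors (median 121) and from 67.7 to 118 in B16-IFNA9 tumors (median 99.1). B16-IFNA4 tumors were the high group, with 4 of them above every control, and B16-IFNA9 tumors had a median near that of the controls. Pdpn was 1.28-fold higher in B16-IFNA4 than in B16-GFP tumors (log2 fold change 0.36 ± 0.11, adjusted p = 0.00674). For IFNA9 against GFP the estimate was -0.03 ± 0.11 (adjusted p = 0.813, interval -0.25 to 0.19), and its sign turned when libraries were scaled by their totals. Leaving out B16-GFP tumor 7, these were 0.33 (adjusted p = 0.0115) and -0.07 (adjusted p = 0.645). In B16-IFNA9 against B16-IFNA4 tumors Pdpn was 1.31-fold lower (-0.39 ± 0.11, adjusted p = 0.0148), the only call among the 6 genes in a comparison where 17.8% of all genes were called, 10.5% higher and 7.25% lower. No B16-IFNA9 tumor reached the median of the B16-IFNA4 tumors, but the groups overlapped, as they did for all 6 genes, where 2.83% of all genes did not overlap.

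Markers of other cells that make Pdpn are given beside it. Of 6 lymphatic endothelial markers, 3 rose and 1 fell with IFNA4 and 5 rose with IFNA9, with median log2 fold changes of 0.71 and 0.75, and their summed level was 67.5 to 280 CPM in B16-GFP, 205 to 294 in B16-IFNA4 and 176 to 373 in B16-IFNA9 tumors. The hyaluronan receptor Lyve1 fell by 0.68 on the log2 scale with IFNA4, and Mmrn1 rose by 1.91. Between the lines 2 were called higher with IFNA9, Lyve1 (1.29) and Prox1 (0.43), the reverse of Pdpn, and none was called lower. Flt4, Mmrn1, Ccl21a and Reln leaned the way of Pdpn there without a call (-0.02 to -0.36), and the list median was -0.13. Of 4 keratinocyte markers, 2 rose with IFNA4, led by the transcription factor Trp63 at 0.71, and Trp63 alone with IFNA9 at 0.62, while none was called between the lines. Their summed level was 439 to 3302, 2301 to 4379 and 834 to 3677 CPM in the 3 types. Of 4 macrophage markers, the lysosomal protein Cd68 rose with IFNA4 (0.54) and was the 1 called with IFNA9 (0.44, adjusted p = 0.0424, a call lost without any 1 of 10 tumors), and the mannose receptor Mrc1 fell by 0.78 with IFNA4 and was 0.73 higher with IFNA9 than with IFNA4. Mrc1 alone fell with IFNA4, but without B16-GFP tumor 7 the count was 3, with Csf1r and C1qa, and without any 1 of 9 other tumors it was 2. Without B16-IFNA4 tumor 1, C1qa joined Mrc1 between the lines. Their sums were 289 to 1246, 592 to 1037 and 650 to 1197 CPM. The part of these cells in the Pdpn difference was not tested.

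Tagln had the fewest counts of the 6 genes. It ran from 3.22 to 11.6 CPM in B16-GFP tumors (median 7.07), from 4.15 to 8.09 in B16-IFNA4 tumors (median 6.83) and from 2.09 to 11.7 in B16-IFNA9 tumors (median 4.88). All 3 ranges overlapped and the gene was called in no comparison, with log2 fold changes of -0.26 ± 0.23 (adjusted p = 0.330), -0.46 ± 0.23 (adjusted p = 0.091) and -0.20 ± 0.23 (adjusted p = 0.602). The differences of Tagln from the control were -0.28 and -0.50 without B16-GFP tumor 7. B16-IFNA9 tumors spread most, with a coefficient of variation of 49.6%. Leaving out any of B16-IFNA9 tumor 5, the highest of its group, B16-IFNA9 tumor 6 or B16-GFP tumor 10 made the IFNA9 difference a call, at -0.64 (adjusted p = 0.0131), -0.55 (adjusted p = 0.0462) and -0.55 (adjusted p = 0.0354). With 34 to 217 counts per tumor, and an antisense gene over most of its exons, Tagln is the least secure of the 6.

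**Figure D2:**
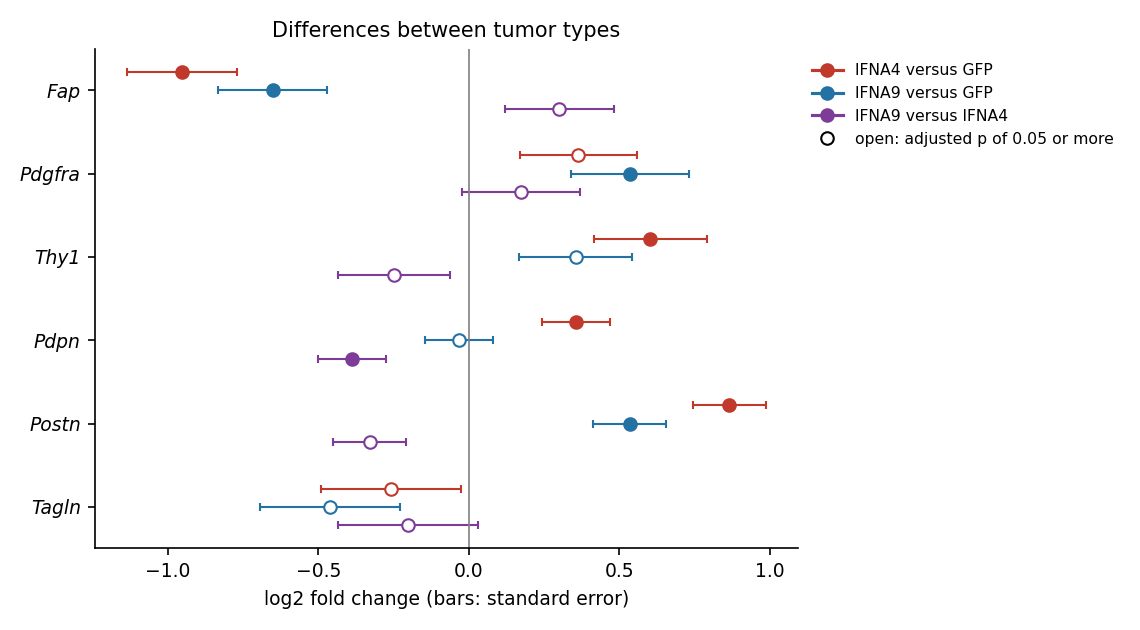
Log2 fold changes of the 6 genes between tumor types, with bars of 1 standard error. Filled points were called at an adjusted p under 0.05 and open points were not. Fap lies to the left of 0 and Postn to the right in both comparisons with B16-GFP, and Pdpn is the only filled point between the interferon lines.

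Set against each other within a tumor, Fap and Postn separated the control from both interferon lines. The log2 ratio of Fap to Postn was -4.63 to -3.70 in B16-GFP tumors, -6.39 to -5.61 in B16-IFNA4 tumors and -5.72 to -4.94 in B16-IFNA9 tumors. Neither interferon range touched that of the control, tumor 7 included, while both interferon ranges overlapped. The ratio of Fap to Pdgfra did the same, at -2.33 to -1.36, -3.61 to -2.78 and -3.67 to -2.72. Fap to Thy1 separated B16-IFNA4 tumors alone from the controls, at -5.06 to -3.47 against -2.95 to -1.83. None of the 10 ratios without Fap separated any types. These ratios were picked from all 15 after the single genes had been seen, so they are a description with no test.

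**Figure D3:**
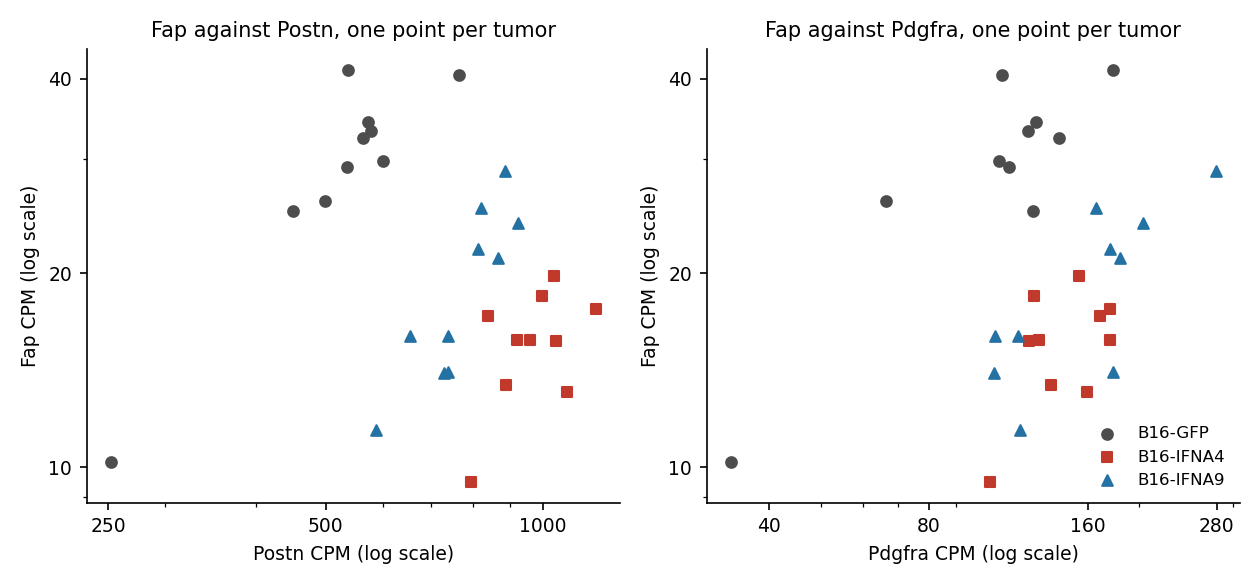
Fap against Postn (left) and against Pdgfra (right) in CPM on log axes, with a point for each of 30 tumors. B16-GFP tumors lie above and to the left of the band formed by both interferon lines, and tumor 7 lies low on both axes at 10.2 CPM of Fap and 252 of Postn.

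Within tumor types the genes kept company to different degrees. Over the 15 pairs and 3 types, 45 correlations of log2 CPM were computed, and 3 passed adjustment. Fap and Postn correlated in B16-GFP tumors (r = 0.94, adjusted p = 0.0287, Spearman's rho = 0.73 with adjusted p = 0.211, permutation test, n = 10) and in B16-IFNA9 tumors (r = 0.88, adjusted p = 0.0176, rho = 0.88 with adjusted p = 0.0358). In those 2 types the genes whose means parted rose and fell together from tumor to tumor, though rho passed in B16-IFNA9 tumors alone. Without the 2 tumors farthest from the median of Fap, r was 0.92 and 0.80. In B16-IFNA4 tumors r was 0.53 (adjusted p = 0.299, permutation test), and 0.08 without the 2 farthest tumors. Thy1 and Pdgfra correlated in B16-GFP tumors (r = 0.91, adjusted p = 0.0176, rho = 0.95 with adjusted p = 0.00315), and without the 2 farthest tumors r was 0.64. Without tumor 7 the r values of the B16-GFP pairs were 0.70 and 0.77, over 9 tumors. Fap and Postn also ran against the melanocyte sum in B16-GFP tumors (r = -0.85 and -0.81), which did not pass adjustment (unadjusted p = 0.0192 and 0.0279, permutation test), and without the 2 farthest tumors r was -0.34 and -0.51. Without tumor 7 the values were -0.34 and -0.24. The part of tumor cell content in these correlations was not tested.

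In B16-IFNA4 tumors no pair passed. The median r over 15 pairs was 0.50 in B16-GFP, -0.05 in B16-IFNA4 and 0.22 in B16-IFNA9 tumors, and 14, 6 and 11 of the pairs were positive. The B16-GFP figures rested on tumor 7, without which the median was 0.10 and 10 of the 15 pairs were positive. Fap and Thy1 had r = 0.83 in B16-GFP tumors and -0.65 in B16-IFNA4 tumors, neither of which passed adjustment (adjusted p = 0.0559 and 0.163, permutation test). The B16-GFP value was 0.50 without tumor 7. The differences between types were not tested.

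**Figure D4:**
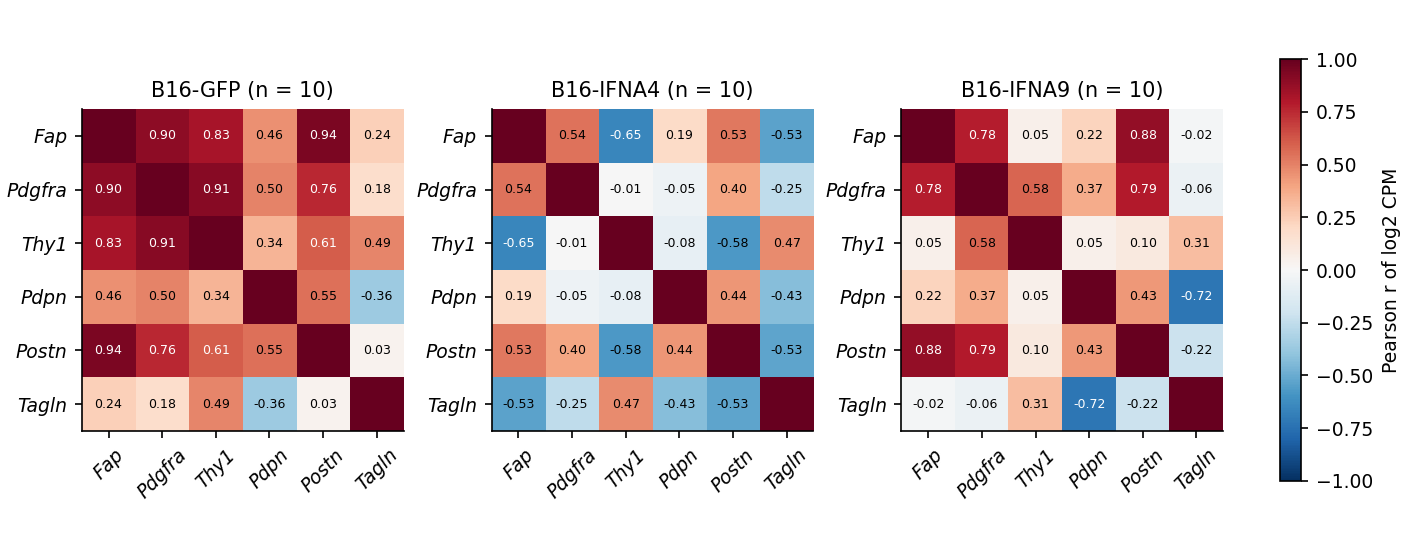
Pearson r of log2 CPM for each pair of the 6 genes, within each tumor type over 10 tumors, from -1 (blue) to 1 (red). Fap and Postn stand at 0.94 in B16-GFP and 0.88 in B16-IFNA9 tumors, and Fap and Thy1 at -0.65 in B16-IFNA4 tumors.

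The genes most like each member, by Pearson r of log2 CPM centred on the mean of each type over 30 tumors, included matrix genes for Thy1 and Pdgfra. For Thy1 they were Il4ra, a chain of the interleukin-4 receptor (r = 0.93), the collagen Col5a1 (0.91) and the matrix protein Spon2 (0.90). For Pdgfra they were the procollagen protease Adamts2 (0.92), the collagen Col6a3 (0.92) and Ccdc80 (0.91). For Fap they were the adaptor Grb10 (0.89), the laminin Lama2 (0.88) and the junction protein Jam2 (0.88), and for Postn Psd3 (0.93), the receptor Il1rl2 (0.90) and Emp1 (0.90). For Pdpn they were Prg4, the lubricin of joints (0.85), the coactivator Ncoa6 (0.83) and Myadm (0.83), and for Tagln Reep6 (0.88), Ormdl3 (0.87) and Map1lc3a (0.87). Without B16-GFP tumor 7, r was 0.79, 0.79 and 0.80 for the genes listed for Fap, which then ranked 4, 7 and 2, and 0.84, 0.77 and 0.76 for those of Postn. It was 0.83 to 0.88 for those of Thy1 and of Pdgfra, 0.82 to 0.84 for those of Pdpn and 0.87 to 0.90 for those of Tagln, so the order among the nearest genes changed with that tumor.

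Other fibroblast markers gave no larger share of calls than all genes did. Of 21 tested, 10 rose and 1 fell with IFNA4 (median log2 fold change 0.36, against 0.01 over all genes) and 5 rose and none fell with IFNA9 (median 0.15, against -0.003). Thus 11 and 5 of 21 were called, where 65.4% and 55.7% of all genes were. By direction, 10 of 21 were called higher with IFNA4, against 31.3% of all genes, and 1 lower, against 34.1%. With IFNA9, 5 were higher, against 26.9%, and none lower, against 28.9%. The difference from these shares was not tested. The IFNA9 count was 3 without B16-GFP tumor 2, 6 or 10 or B16-IFNA9 tumor 6, as Pi16 and Twist2 lost their calls (adjusted p up to 0.0921 and 0.0673 with any tumor left out). Mfap5 was called lower with IFNA9 when B16-GFP tumor 7 was left out (adjusted p = 0.0297), and Fbln1 was a second marker called lower with IFNA4 without B16-GFP tumor 1 or 10 or B16-IFNA4 tumor 6. The transcription factor Prrx1 rose most with IFNA4 (0.96, adjusted p = 4.29e-05), followed by the matrix proteins Mfap4 (0.87) and Fbln2 (0.81), and Mfap4 rose most with IFNA9 (0.92, adjusted p = 0.00153). Of the genes for fibrillar collagens, Col1a1 and Col3a1 were not called (0.07 and -0.21 with IFNA4), while Col1a2 rose with IFNA4 (0.49, adjusted p = 0.0216), a call lost without B16-IFNA4 tumor 9 (adjusted p = 0.0520), and Col5a2 rose with IFNA4 (0.37, adjusted p = 0.0460), a call lost without any 1 of 16 tumors. Between the lines, 3 markers were lower with IFNA9, Fbln2 (-0.68), the receptor Pdgfrb (-0.57) and Mfap5 (-0.38), the last a call lost without any 1 of 13 tumors. The median over the list was -0.07, against -0.006 over all genes. The summed level of the 21 markers was 4197 to 17105 CPM in B16-GFP, 10796 to 17401 in B16-IFNA4 and 10892 to 16841 in B16-IFNA9 tumors.

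Lrrc15, a surface protein of activated myofibroblasts, was the 1 marker that fell with IFNA4 (log2 fold change -1.45 ± 0.55, adjusted p = 0.0217). Its level ran from 9.37 to 295 CPM in B16-GFP tumors and from 10.6 to 27.2 in B16-IFNA4 tumors, so the B16-IFNA4 range lay wholly inside that of the controls, near its lower end. The call rested on 1 control: without B16-GFP tumor 2 it was -0.48 (adjusted p = 0.334). The call was also lost with the replicate block (adjusted p = 0.261). Fap, another marker of activated fibroblasts, kept its calls against the control whichever single tumor was left out.

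Pdgfra followed the fibroblast sum in every type, with r = 0.92 in B16-GFP, 0.84 in B16-IFNA4 and 0.87 in B16-IFNA9 tumors (adjusted p = 0.0174, 0.0284 and 0.0256, permutation test, n = 10), and 0.60, 0.72 and 0.89 without the 2 farthest tumors. Spearman's rho was 0.88, 0.85 and 0.84 (adjusted p = 0.0376, 0.0488 and 0.05001, permutation test), so the last narrowly missed the threshold. Thy1 followed it in B16-GFP tumors (r = 0.95, adjusted p = 0.0054, permutation test, and 0.87 without the 2 farthest tumors) and was at 0.22 and 0.55 in the others, which did not pass. In B16-GFP tumors both also followed the sum of the mural cell markers, the cells that wrap blood vessels, with r = 0.88 for each (adjusted p = 0.0054 for Pdgfra and 0.018 for Thy1, permutation test), and 0.81 and 0.68 without the 2 farthest tumors. Thy1 also followed the contractile sum there (r = 0.80, adjusted p = 0.0456, permutation test, and 0.68 without the 2 farthest tumors). By Spearman's rho, Thy1 passed with the fibroblast sum (0.93, adjusted p = 0.0207, permutation test) and Pdgfra with the mural sum (0.89, adjusted p = 0.0366), and so did Pdgfra with the contractile sum (0.89, adjusted p = 0.0366), whose Pearson r of 0.73 did not (adjusted p = 0.0544), while Thy1 did not pass with the mural sum (0.81, adjusted p = 0.076) or the contractile sum (0.84, adjusted p = 0.05001). Neither gene passed with the mural sum in the interferon lines. Des was the largest part of that sum, at a mean of 301 of 803 CPM in B16-GFP tumors. The values without B16-GFP tumor 7 were, with the fibroblast sum, 0.75 for Pdgfra and 0.87 for Thy1, those with the mural sum 0.88 and 0.82, and that of Thy1 with the contractile sum 0.80.

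Fibroblasts can also take on an inflammatory state in which they secrete cytokines and chemokines. Of 10 such genes, 7 rose with IFNA4 (median log2 fold change 0.97) and 4 with IFNA9 (median 0.11), and 5 were lower with IFNA9 than with IFNA4 (median -0.62). The call of Il6 between the lines (-0.71) was lost without any 1 of 12 tumors. The call of Has2, which makes hyaluronan, with IFNA9 (0.71) was lost without B16-GFP tumor 6, 7 or 10 or B16-IFNA9 tumor 4, and its value was 0.32 without the last (adjusted p = 0.214). Cxcl12 was called lower with IFNA9 when B16-GFP tumor 7 was left out. The chemokines Ccl7 and Ccl2, which draw in monocytes, rose with IFNA4 (2.27 and 2.10) and IFNA9 (1.34 and 1.20). Il11, a cytokine of the interleukin-6 family, was the gene that was lower by most between the lines (-1.16, adjusted p = 0.00207). Macrophages and tumor cells make several of these products too, and their part was not tested.

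Of 5 ligands and receptors of the TGF-β pathway, Tgfb2, Tgfbr2 and Tgfbr3 rose in both lines, led by Tgfbr3 at 0.78 with IFNA4 and 0.61 with IFNA9. Of 5 SMAD genes, Smad2 and Smad3 rose with IFNA4 (0.25 and 0.38), Smad3 rose with IFNA9 (0.34), and the inhibitor Smad7 fell by 0.37 with IFNA9, a call lost when libraries were scaled by their totals and without B16-GFP tumor 2 or 8 or B16-IFNA9 tumor 2. Of 5 targets, 4 rose with IFNA4 and 3 with IFNA9, most of all Ltbp1, which tethers latent TGF-β to the matrix, at 1.52 and 1.01. Between the lines 3 targets were lower with IFNA9, Ltbp2 (-0.74), Ccn2, a matrix protein that follows TGF-β (-0.71), and Ltbp1 (-0.51). Tgfb2 was called lower between the lines, and Ccn2 lower with IFNA9, when B16-GFP tumor 7 was left out. Smad2 was called with IFNA9 without B16-GFP tumor 10 or B16-IFNA9 tumor 5, and Smad6 was called lower with IFNA4 without B16-GFP tumor 10.

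Contractile genes, the companions of Tagln and smooth muscle actin, were mixed. Of 12 tested, 3 rose and 2 fell with IFNA4 (median log2 fold change 0.21) and 2 rose and 2 fell with IFNA9 (median -0.15). Cald1, an actin-binding regulator of contraction, rose by 0.68 and 0.55 and the actin crosslinker Flna by 0.47 and 0.34, while the LIM protein Csrp1 fell (-0.50 and -0.39). The count that fell with IFNA9 was not stable. Without any 1 of 18 tumors Smtn lost its call, and without B16-GFP tumor 7 the count was 5, with Myl9, Tpm1 and Tpm2 added. It was 4 without B16-GFP tumor 10 or B16-IFNA9 tumor 5. Between the lines Synpo2 (-0.68) and Tpm2 (-0.78) were lower with IFNA9, and the call of Tpm2 was lost without any 1 of 17 tumors. Of the 3 coactivators of serum response factor tested, which drive contractile genes, Myocd rose by 1.58 and 1.17, Mrtfa rose by 0.29 and 0.31 and Mrtfb was not called. The calls of Mrtfa were lost without some single tumors (adjusted p up to 0.0695 and 0.0673). Myocd itself was low, at 0.777 CPM in B16-GFP and 2.36 CPM in B16-IFNA4 tumors on average.

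Markers of mural cells and of skeletal muscle, other sources of actin-binding proteins, are given beside these. Of 9 mural markers, 5 fell and none rose with IFNA4 (median log2 fold change -0.43), though Des was called higher without B16-GFP tumor 3, and 7 fell with IFNA9 (median -0.90). Rgs5, a marker of pericytes, fell in both lines (-1.90 and -2.22), from 115 to 370 CPM in B16-GFP tumors to 53.2 to 90.0 in B16-IFNA4 and 33.6 to 78.3 in B16-IFNA9 tumors, with no overlap. Abcc9 and Des were the 2 mural genes lower with IFNA9 than with IFNA4 (-0.80 and -1.07). The summed mural level was 422 to 1412, 420 to 801 and 267 to 657 CPM in the 3 types. Des was the largest part of this sum. It averaged 301 of 803 CPM in B16-GFP, 380 of 653 in B16-IFNA4 and 181 of 409 in B16-IFNA9 tumors. Its difference between the lines was near the median of the skeletal muscle markers there (-0.94), and the part of muscle in the mural sum was not tested. Of 6 skeletal muscle markers, none was called with IFNA4, 4 fell with IFNA9 and 5 were lower with IFNA9 than with IFNA4, with the actin Acta1 at -1.19 and -1.16. The count with IFNA9 was 2 without B16-GFP tumor 3, as Ckm and Tnni2 lost their calls, and 6 without B16-GFP tumor 7 or B16-IFNA9 tumor 5, with Myh4 and Tnnt3 added. Their sums ran from 3177 to 16224, from 3813 to 13642 and from 1536 to 11751 CPM. Tagln and the mural sum had r = 0.43, 0.63 and 0.84 in the 3 types, none of which passed (adjusted p = 0.400, 0.164 and 0.0515, permutation test). The part of these cells in the contractile genes was not tested.

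**Figure D5:**
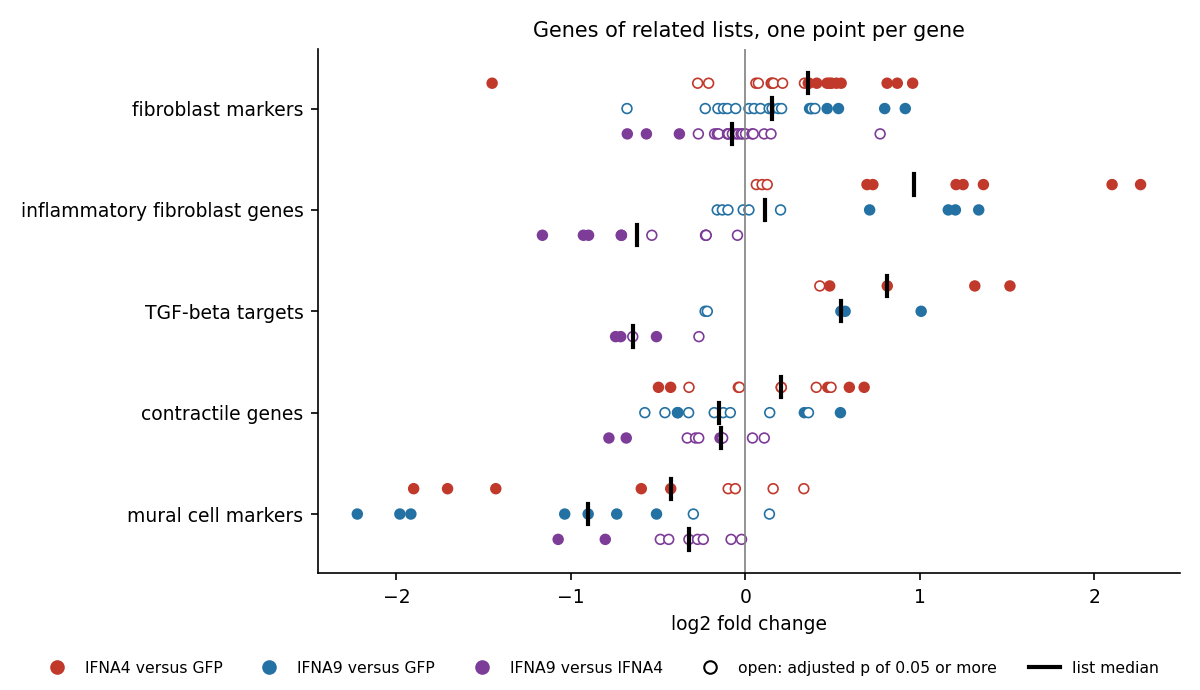
Log2 fold changes of single genes in 5 lists, with a point for each gene, filled where called, and a black bar at the median of the list. Mural markers lie mostly left of 0 in both comparisons with B16-GFP, inflammatory fibroblast genes and TGF-β targets mostly right of 0 with IFNA4, and contractile genes on both sides.

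Paralogs were tested for Fap, Pdgfra, Tagln and Acta2, and the differences from the members were not tested. Dpp4, a related peptidase that lies near Fap on chromosome 2, rose by 0.84 with IFNA4 (adjusted p = 0.000388) and 0.75 with IFNA9 (adjusted p = 0.00154), where Fap fell. Pdgfrb rose by 0.41 with IFNA4 and was not called with IFNA9 (-0.16), where Pdgfra was. Tagln2 rose by 0.64 and 0.38, and the neuronal Tagln3 was called lower in both lines (-2.14 and -1.32). Tagln3 was near the lower limit of what was counted, with 1.24 ± 1.97 CPM in B16-GFP tumors (SD, n = 10), where 1 tumor reached 6.62, and without B16-GFP tumor 2 its mean count fell under the filter and it was not tested. Of the actins, Actg1 fell in both lines (-0.67 and -0.59), with 37.4% of its read-length stretches shared with other genes, Actb fell with IFNA9 by 0.25, Actc1 fell with IFNA9 by 1.16 and Actg2 was not called. With IFNA9, the call of Tagln2 was lost without B16-GFP tumor 10 or B16-IFNA9 tumor 6 or 8, that of Tagln3 without any 1 of 9 tumors and that of Actb without B16-GFP tumor 9 (adjusted p up to 0.0582, 0.0631 and 0.0505).

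Markers of the remaining cell types complete the picture. Of 6 blood endothelial markers, 4 fell with each interferon and the receptor Kdr rose with IFNA4 by 1.35, and 4 were lower with IFNA9 than with IFNA4. Esam, an adhesion protein of endothelium, fell by 1.95 with IFNA9. The melanocyte genes Tyr and Tyrp1 both fell in both lines, Tyrp1 by -1.97 and -1.17 on the log2 scale, with sums of 6665 to 22116, 1940 to 3217 and 3061 to 8317 CPM. None of 4 adipocyte markers was called in any comparison, with medians of 0.45, 0.35 and -0.15, but Plin1 (0.61 with IFNA4, adjusted p = 0.0604) was called with library totals, DESeq2, only the 20 tumors compared or the replicate block (adjusted p down to 0.0287), and without B16-GFP tumor 5 or 6 or B16-IFNA9 tumor 5. Adipoq was called as well without B16-GFP tumor 6 (adjusted p = 0.0499). The bulk counts do not measure the share of each cell type in a tumor, and its part in the differences of the fibroblast genes was not tested. The study did measure cell types in tumors of these lines on day 8, by single-cell sequencing and flow cytometry. It reports fewer fibroblasts in B16-IFNA4 than in B16-GFP tumors.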

How the data were processed

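Total RNA of whole tumors was made into stranded mRNA libraries and sequenced with single-end reads of 50 bases. Per the labels and the study's methods, the authors checked reads with FastQC 0.11.3, aligned them with HISAT2 2.0.4 and used summarizeOverlaps for gene counts; the build is mm10 in the submitters' processing notes and mm11 in the study's methods. The annotation release and the overlap mode are not given in the sources used here. The deposited values are raw counts.

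Symbols came from GENCODE M21, which held 39495 of 39676 identifiers. Genes whose mean count reached 10 were fitted with edgeR 4.0.16 (R 4.3.3, TMM, quasi-likelihood) over all 30 tumors, without covariates. P-values measure the spread between these tumors. Standard errors were derived from the F statistic. Intervals are normal 95% limits from these standard errors, slightly narrower than the quasi-likelihood test itself would give. The study used DESeq2, which is tried here as an alternative (1.42.0). Log2 CPM took a prior count of 2, and correlations used permutation tests with 100000 resamples of 10 tumors. The fit and the correlations were tested on simulated data. Plots used matplotlib 3.10.9 in Python 3.11.15.

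The members, lists and tests were chosen with earlier results of these data known. Genes named are the members, their paralogs, the 3 genes most correlated with each member, and, from each list, called genes with the largest rise and fall in a comparison and abundant markers; others named (Mfap4, Fbln2, Pdgfrb, Mfap5, Col1a1, Col1a2, Col3a1, Col5a2, Flna, Synpo2, Ccl2, Ccn2 genes of lists of 6 or fewer, and genes named for a call that a single tumor moved) were chosen after their values were seen. Lists share Pdgfrb, Acta1 and Actg2. The alternatives were other normalizations, filters, tools and samples, a replicate block, a minimum fold of 2 and leaving out each tumor.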

Additional observations from a re-analysis of the deposited data

Results flagged for a closer look

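The lowest or the highest of 10 tumors was compared with its nearest neighbour by Dixon's criterion, at its 95% critical value, for 6 genes in 3 tumor types. Of 18 groups searched, 3 passed, where chance gives about 0.9. Fap of B16-GFP tumor 7 was 3.36 log2 CPM, with a gap of 0.641 of the range to the next tumor, and Postn of the same tumor was 7.98 log2 CPM, with a gap of 0.524. That tumor also had the highest melanocyte sum, at 22116 CPM, and the lowest scaling factor, and its part in these values was not tested. Pdpn of B16-IFNA9 tumor 5 was 6.09 log2 CPM, with a gap of 0.524, and the same tumor had the highest Tagln of its group.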

How the results depend on the processing

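The counts of called members were 4 of 6 for IFNA4 against GFP, 3 for IFNA9 against GFP and 1 for IFNA9 against IFNA4. With a change of at least 2-fold required as well, 0 members were called in each of the 3 comparisons, though without B16-GFP tumor 7 Fap passed 2-fold for IFNA4 against GFP (-1.03). For IFNA9 against IFNA4 the count was 2, with Postn joining Pdpn, under DESeq2 size factors, DESeq2 and a fit of only the 20 tumors compared, and 1 to 2 with a tumor left out (2 without B16-GFP tumor 7 or B16-IFNA4 tumor 7). With a tumor left out, the other counts were 4 to 5 and 2 to 4. Pdpn for IFNA9 against GFP, not called in any setting, turned from -0.03 to 0.057 when libraries were scaled by their totals, and ranged from -0.066 to 0.025 with a tumor left out. Thy1 for IFNA9 against GFP was called with library totals (0.45, adjusted p = 0.0456). The cause was not tested. The differences of Fap and Postn from the control, and the called differences of Thy1 and Pdpn, kept their direction and call with every tumor left out and under all alternatives but the 2-fold minimum. The 3 correlations called did not change in number with library totals or a prior count of 0.5.

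Over all genes, only the 20 tumors compared gave 4332 calls for IFNA9 against IFNA4, against 2833. Leaving out B16-GFP tumor 7 gave 3801 calls there. The 2-fold minimum left 2974, 1992 and 450 calls. Library totals split the calls of IFNA9 against GFP into 5052 higher and 3608 lower, against 4281 and 4595.

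Replicate numbers did not pair the tumors, as the deviations of same-numbered tumors correlated at -0.27 to 0.30 over 30 pairs, 4 of them above 0.1, and in 4 of 60 comparisons a tumor matched its own number best. With the replicate block 5, 3 and 1 members were called, the added one being Pdgfra for IFNA4 against GFP (0.41, adjusted p = 0.0407). Depth limits Tagln most, with 34 to 217 counts per tumor. Of the other genes named, calls were lost under some alternative with all tumors kept for Pi16 and Smtn in both comparisons with the control, for Col5a2 and Lrrc15 with IFNA4, for Twist2, Cd68, Trp63, Smad7, Tnni2, Tagln2, Tagln3 and Actb with IFNA9, and for Il6, Mfap5, Tnni2 and Tpm2 between the lines. Calls were gained for C1qa, Plin1 and Col6a3 with IFNA4, for Col1a2, Smad2, Tnnt3 and Tpm2 with IFNA9, and for C1qa, Ckm, Cxcl12, Has2, Lck, Pdgfd, Tagln2 and Tgfb2 between the lines. The 2-fold minimum is not counted here.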
